A study of Drosophila melanogaster and Drosophila mauritiana and Drosophila simulans with 22 samples.

Results

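With each array centred on its median, 455 CG-numbered genes stood at 1.5 log2 units or more in D. melanogaster testes over whole males. Of these, 89 did not lie more than 0.5 log2 units below both parents in testes of the hybrid with D. simulans mothers. They are 89 of the 6793 genes that carried a single symbol on the arrays. A CG number is the running number of a Drosophila gene annotation, and here it means that the probe table gave the gene no other symbol. The genes were chosen by their values in 3 groups, melanogaster, simulans and their hybrid. The melanogaster mean had to be 1.5 or more. The hybrid mean minus the lower parent's mean had to be above -0.5, and minus the higher parent's mean under 2. Values of these 3 groups are therefore given as descriptions, with no test. Of the 455 genes, 365 (80.2%) lay further below, 1 lay above the ceiling (CG6891, 2.44 above the higher parent) and 89 (19.6%) were kept. Among 399 genes with a name of another kind and the same melanogaster level, 147 (36.8%) met the same values.

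Every array set testes against the whole body. A level here is the log2 of testes over whole males of D. melanogaster, minus the array's median over rows with 1 symbol. That the logarithm is to base 2 is inferred, since the sources used here do not give the base, and every fold rests on it. Amplified Cy5 RNA from 200 testes of 4 day old males, dissected without the accessory glands, was hybridised with Cy3 total RNA of 4 day old whole males of the melanogaster strain, on all 22 arrays and with no dye swap. The species were D. melanogaster (strain 14021-0231.00), D. simulans (14021-0251.2), D. mauritiana (14021-0241.1) and D. sechellia (strain #12 on 2 arrays, with none given on the third). The 3 hybrids came from 10 D. simulans females of the strain above and 15 males of another species per vial, and are named here by the father. The fathers were D. melanogaster or D. mauritiana of the strains above, or D. sechellia, for which no strain number was found in the hybrid labels. A temperature of 25 °C is given for every group. There were 4 arrays of D. mauritiana and 3 of every other group. The series' design text calls the replicates independent but does not say that they came from separate crosses or cultures, so the p-values reflect the spread among these arrays alone, which may be technical.

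In the fly testis, germline stem cells give rise to spermatogonia, which become spermatocytes. Spermatocytes switch on a large set of testis genes, and many of their transcripts are stored until the spermatids elongate. Hybrid males of these species pairs are known to be sterile. Testis RNA comes from the whole organ, germ cells and somatic cells together, so fewer cells of a type and less RNA per cell cannot be told apart.

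Late germline markers are set beside the 89 genes, which the rule kept from falling far below both parents in the melanogaster hybrid. The median of 5 late spermatid genes ran from 1.67 to 2.32 on the melanogaster arrays and from -3.65 to -2.86 on those of the melanogaster hybrid. Of these genes, and of 6 cup and comet genes, which are transcribed after meiosis, 3 each had a melanogaster mean of 1.5 or more. Of those, 0 met the kept values. Among all 399 genes at this melanogaster level with a name other than a CG number, 36.8% met them. Gut and muscle markers had medians below -1 on every array of every group. The 4 accessory gland markers on the array were different. Their median lay between -4.29 and -3.74 on the melanogaster arrays, between -3.36 and -2.61 in simulans and between 1.18 and 2.11 in the melanogaster hybrid, although the labels name testes without these glands. Blood cell markers (6 genes) ran from -0.29 to -0.16 in melanogaster and from 0.71 to 1.11 in the melanogaster hybrid. The part of these tissues in the kept values was not tested.

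Several arrays stood apart. Duplicate rows of the same gene differed with an SD of 1.17, 1.74 and 1.67 on the D. sechellia arrays. On all others the SD was 0.20 to 0.49, so D. sechellia is described by value and stays out of the tests. For rows of the 89 genes alone the gap was smaller, with 0.53, 0.56 and 0.52 against 0.14 to 0.39. D. sechellia arrays 2 and 3 also held 2703 and 2526 exact zeros. Arrays 1 and 2 correlated at r = 0.97 across genes in melanogaster and again in simulans (0.97), closer than any other pair in these groups. They may be repeat runs, which the labels do not say. With each close pair averaged the rule again gave 89 genes, of which 78 were shared. Within the sechellia hybrid the correlation was 0.83 between arrays 1 and 3, and only 0.37 and 0.40 for the pairs with array 2. Genes are not independent points in these correlations. Sechellia hybrid arrays 1 and 2 held 13019 and 13199 of 27648 values, and array 3 held 24514. D. mauritiana array 3 held 13326. Each array was centred on the median of the rows it held, so its 0 rests on those rows alone.

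The word kept refers to the lower parent, not to melanogaster. The hybrid mean minus the melanogaster mean had a median of -0.25 over the 89 genes and ran from -3.15 to 1.24. In 45 genes it lay within 0.5 of 0, and in 25 it was -1 or less. Against simulans the median difference was 0.004, with 69 genes within 0.5 of 0 and 10 at 1 or more. Simulans itself lay 1 or more below melanogaster in 30 genes, and both simulans and the hybrid did so in 21. By array, the hybrid lay below all melanogaster arrays in 29 genes, above them in 6 and overlapped them in 54. Against simulans it lay above in 16, below in 1 and overlapped in 72. All of these values entered the rule, whose floor limits how far the hybrid can lie below the lower parent. The share of all genes without overlap was not counted for these pairs, so the counts have no background beside them. Across the 89 genes the hybrid means correlated with the simulans means at r = 0.73 and with the melanogaster means at r = 0.12. Simulans was below melanogaster in 70 of the 89 genes, so the floor mostly limited how far the hybrid could lie below simulans. The r of 0.73 was thus partly set by the rule. The melanogaster means span a narrow range above the minimum, and all means share the reference RNA.

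**Figure D1:**
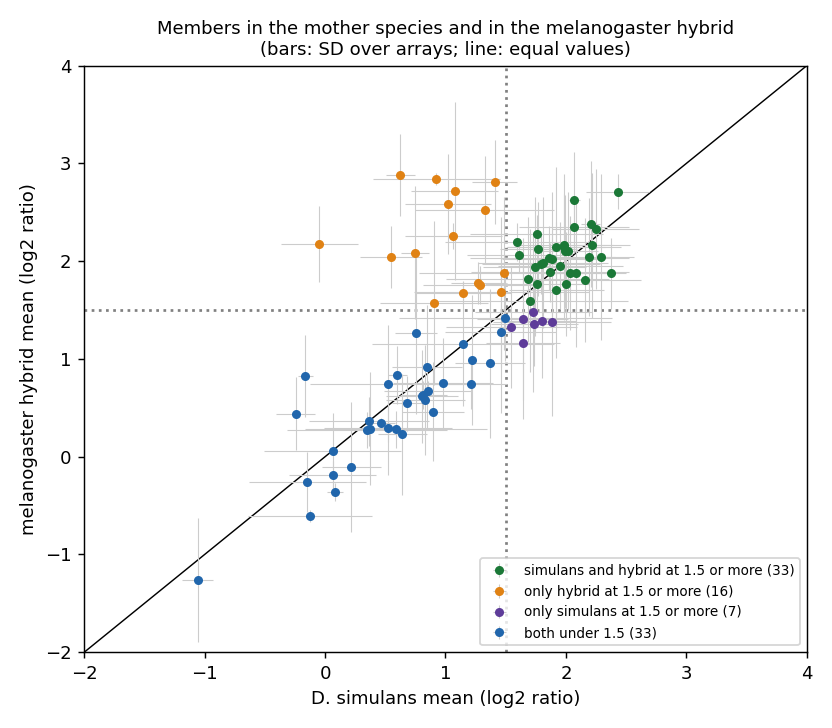
Each point is 1 of the 89 genes, with its mean log2 ratio over D. simulans arrays on the horizontal axis and over melanogaster hybrid arrays on the vertical axis. Bars are the SD over arrays, the solid line marks equal values and the dotted lines mark 1.5. In 33 genes both means were at 1.5 or more and in 33 both were lower, and 16 points were high in the hybrid alone.

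The genes were split by whether the simulans and the hybrid mean also reached 1.5, a split made after the values were seen and therefore without a test. In 33 genes both did. They were CG4367, CG31717, CG4036, CG13603, CG6674, CG14273, CG30002, CG6443, CG5194, CG31223, CG9689, CG12123, CG15395, CG34159, CG9706, CG32582, CG9154, CG10395, CG11170, CG18788, CG13130, CG32099, CG18128, CG7810, CG5391, CG13127, CG1421, CG12112, CG12439, CG10927, CG1602, CG33307 and CG6583. Their medians were 1.96 in melanogaster, 1.98 in simulans and 2.04 in the hybrid. These genes had an SD over genes of 0.27, 0.22 and 0.25 in these groups, a spread narrowed in advance by the cut at 1.5. Their levels shifted with the array. The median was 2.19, 2.16 and 1.46 on simulans arrays 1, 2 and 3, and 1.51, 2.50 and 2.09 on hybrid arrays 1, 2 and 3. On simulans arrays 1 and 2 all 33 genes were at 1.5 or more, and on array 3 only 16 were. In D. mauritiana the same genes were lower, with a median of 0.74 and 4 genes at 1.5 or more. In the mauritiana hybrid the median was 1.24, in D. sechellia 0.25 and in the sechellia hybrid 0.20.

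Of the genes high in all 3 chosen groups, CG5194 and CG6674 had the highest melanogaster means. CG6674 stood at 2.44, 2.58 and 2.74 in melanogaster, at 2.39, 2.51 and 1.83 in simulans and at 1.66, 2.87 and 2.46 in the hybrid. The 3 groups overlapped. In D. mauritiana CG6674 ran from -0.03 to 1.91 (mean 0.96 ± 0.79, SD, n = 4 arrays) and in the mauritiana hybrid from 1.08 to 1.74. CG5194 was at 2.68, 2.78 and 2.39 in melanogaster, at 2.36, 2.44 and 1.85 in simulans and at 1.36, 2.82 and 2.32 in the hybrid. Hybrid array 1 was the lowest of these 9 values.

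The next 16 genes were high in the hybrid and under 1.5 in simulans: CG5455, CG8372, CG10444, CG8839, CG5793, CG13887, CG15012, CG10650, CG10413, CG5850, CG32021, CG17660, CG14292, CG12909, CG17258 and CG8613. Their medians were 1.77 in melanogaster, 1.07 in simulans and 2.13 in the hybrid. The 3 genes nearest the ceiling belong here. CG8372 was at 2.78, 2.85 and 2.89 in the hybrid, at 2.21, 2.24 and 0.37 in melanogaster and at 1.34, 1.11 and 0.33 in simulans. All hybrid arrays were above all parental arrays, and melanogaster array 3 was far below the other 2. Its hybrid mean lay 1.24 above the higher parent. CG5455 was at 2.48, 3.32 and 2.84 in the hybrid, 1.67 to 1.88 in melanogaster and 0.49 to 0.72 in simulans, with no overlap among the 3 groups. The difference from the higher parent was 1.10. CG8839 (1.03 above the higher parent) was at 3.37, 1.68 and 3.10, so hybrid array 2 fell within the melanogaster values of 1.24 to 1.94. CG13887 had the highest melanogaster mean of the 16, 2.74 ± 0.22 (SD, n = 3), with 2.53 ± 0.56 in the hybrid and 1.33 ± 0.58 in simulans.

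Another 7 genes were high in simulans and just under 1.5 in the hybrid, CG31633, CG12446, CG18088, CG7213, CG10512, CG6686 and CG12377. Their hybrid means lay between 1.16 and 1.48 and their simulans means between 1.55 and 1.89. CG12377 was nearest the floor of the rule, 0.48 below its lower parent. Its hybrid arrays read 0.57, 2.04 and 0.87, and its simulans arrays 1.53, 1.99 and 1.40, so hybrid array 2 was above every simulans array and the other 2 below.

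In the last 33 genes both simulans and the hybrid were under 1.5: CG17580, CG3955, CG8149, CG7059, CG31287, CG17991, CG8547, CG4972, CG10053, CG5445, CG8654, CG14232, CG12241, CG11807, CG11537, CG2218, CG9662, CG3287, CG8237, CG9231, CG10681, CG43345, CG5339, CG10973, CG8441, CG10465, CG6418, CG17129, CG6833, CG5664, CG13004, CG6985 and CG6961. Their medians were 1.78 in melanogaster, 0.60 in simulans and 0.55 in the hybrid, so they passed because the simulans level was low too. CG17129 read 2.64, 2.76 and 2.21 in melanogaster, -0.05, 0.44 and 0.27 in simulans and 0.08, 0.45 and -0.84 in the hybrid. Every melanogaster array was above every array of the other groups. CG6961 was the lowest gene in the hybrid, at -1.15, -0.68 and -1.94, with -1.10, -0.91 and -1.16 in simulans and 2.19, 1.98 and 1.51 in melanogaster. CG17991, the highest of all 89 in melanogaster (2.77, 3.12 and 2.47), was at 1.59, 1.47 and 1.04 in simulans and at 0.63, 1.83 and 0.41 in the hybrid. CG11807 followed at 2.67, 2.91 and 2.68, with 0.61 to 0.98 in simulans and 0.49 to 0.78 in the hybrid. Both genes were below melanogaster on every simulans and hybrid array. On probes of melanogaster sequence, weaker binding of simulans RNA and lower expression cannot be told apart.

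**Figure D2:**
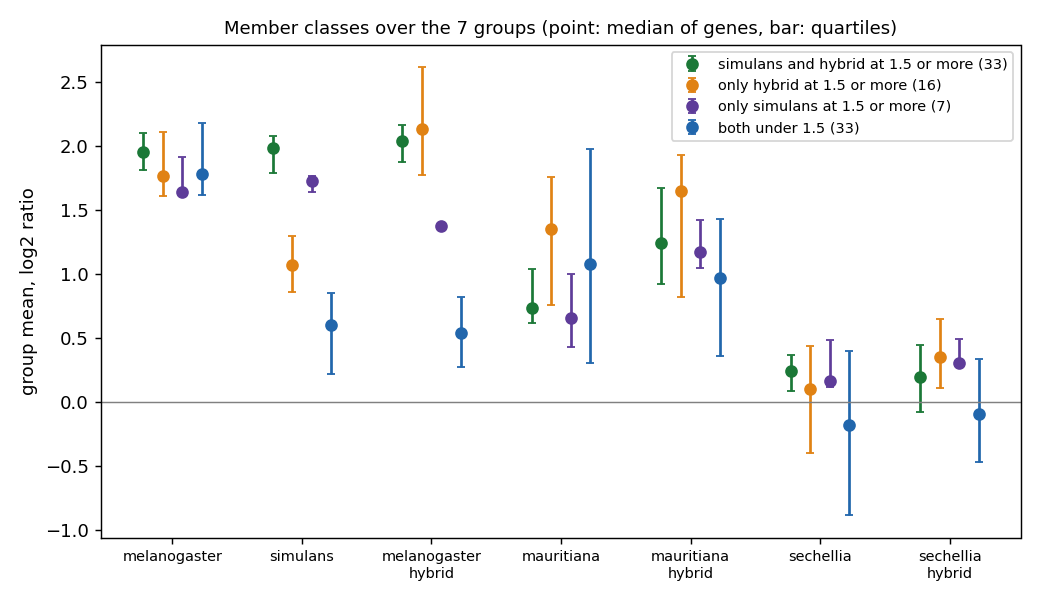
Points are the median over genes of the group mean log2 ratio and bars the quartiles, for the 4 classes of the 89 genes in the 7 groups. The 33 genes high in both simulans and the hybrid fell to a median of 0.74 in D. mauritiana, while the 33 genes low in both stood at 1.08 there.

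The thresholds cut through a continuous range. Just inside the melanogaster minimum were CG9231 (1.51), CG32021 (1.52) and CG8237 (1.52). Just outside were CG10265 (1.498), CG12917 (1.493) and CG1309 (1.492). At the floor, CG12377, CG6985 and CG14232 lay 0.48, 0.48 and 0.47 below the lower parent. CG15296 (-0.51), CG14270 (-0.51) and CG6931 (-0.54) were just past it. CG15296 illustrates how the floor works: its means were 3.63 in melanogaster, 2.25 in simulans and 1.74 in the hybrid, so it was left out at a higher hybrid level than that of many kept genes.

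Across all 7 groups the 89 genes were highest in the groups that chose them. The medians were 1.87 in melanogaster, 1.71 in the melanogaster hybrid, 1.41 in simulans, 1.16 in the mauritiana hybrid, 0.92 in D. mauritiana, 0.20 in the sechellia hybrid and 0.13 in D. sechellia. Means of 1.5 or more were seen for 89, 49, 40, 29, 26, 2 and 5 genes in that order. Over all genes the counts were 855, 444, 518, 708, 747, 144 and 1058, of 6576 to 6793 genes with a mean. The lowest of the 7 means was in D. sechellia or its hybrid in 78 genes. In 54 genes the mean was above 0 in all 6 groups other than D. sechellia. In only 4 was it 1.5 or more in melanogaster, simulans, D. mauritiana and both the melanogaster and mauritiana hybrids. These counts over several groups at once were not made for all genes, so they have no background beside them. The 365 genes that fell had medians of 2.30 in melanogaster, 1.63 in simulans, -0.81 in the melanogaster hybrid, 2.21 in D. mauritiana and 1.82 in the mauritiana hybrid, the last 2 above those of the kept genes. Their medians in D. sechellia and the sechellia hybrid were 0.75 and 0.19. Spread within groups was large beside these shifts: the median of the 89 genes ran from 0.45 to 1.30 over the D. mauritiana arrays and from 0.70 to 1.56 over those of the mauritiana hybrid.

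**Figure D3:**
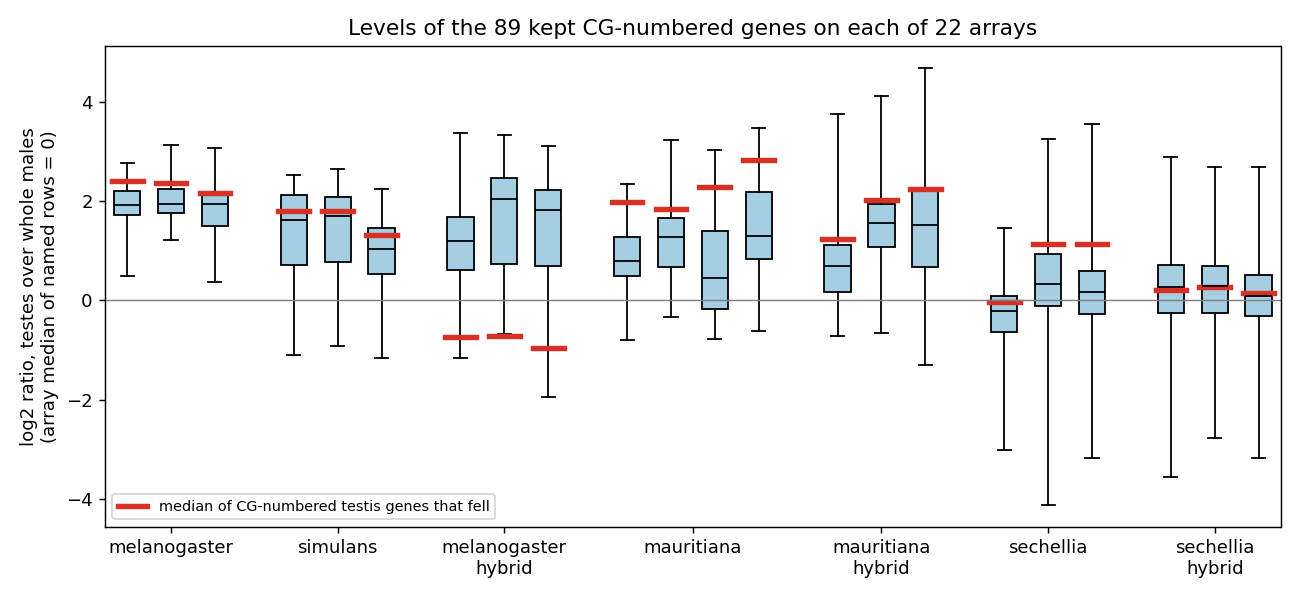
Boxes show the quartiles and median, and whiskers the full range, of the log2 ratios of the 89 genes on each of 22 arrays. Red bars mark the median of the CG-numbered testis genes that fell. On the melanogaster hybrid arrays the medians of the 89 genes were 1.19, 2.04 and 1.81, while in D. mauritiana the red bars lay above the boxes' medians on every array.

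**Figure D4:**
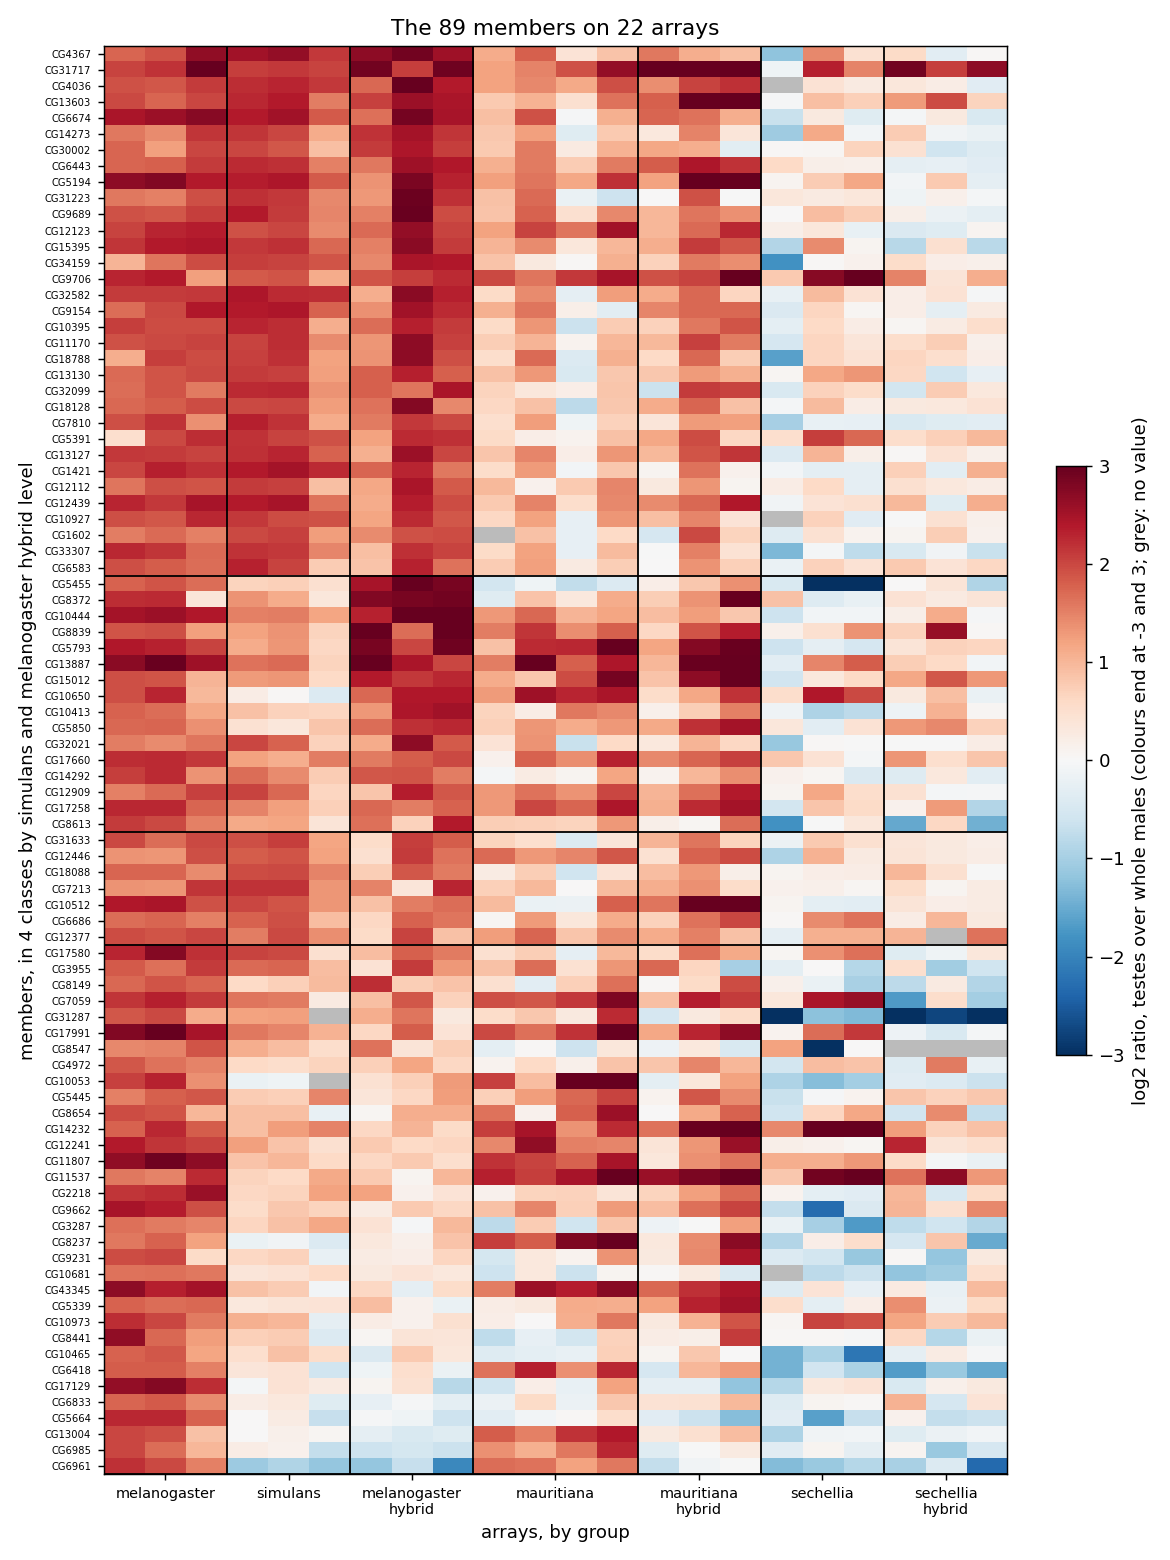
Each line is 1 of the 89 genes, in the 4 classes divided by horizontal lines and ordered by melanogaster hybrid mean, and each column 1 of 22 arrays. Colour is the log2 ratio, with the ends of the scale at -3 and 3 and grey for no value. The top block is high in the first 3 groups, less so on simulans array 3 and hybrid array 1 (medians 1.46 and 1.51), and the bottom block is high in melanogaster and, for some genes, in D. mauritiana.

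CG31717 had the highest minimum over the 6 group means, though its means ranged over 2.37 log2 units. It was at 2.03, 2.17 and 3.07 in melanogaster, 2.07, 2.11 and 2.03 in simulans and 2.90, 2.07 and 2.92 in the melanogaster hybrid. In D. mauritiana it was at 1.22, 1.48, 1.92 and 2.63 and in the mauritiana hybrid at 3.75, 4.12 and 4.68. It was the only gene at a mean of 1.5 or more in all 6 groups, with 2.89, 2.07 and 2.68 in the sechellia hybrid. By this measure CG12377, CG8839, CG15012, CG9706 and CG13603 followed. The lowest of their 6 means were 1.16, 1.08, 1.07, 0.99 and 0.98. CG9706 was at 1.24 to 2.38 in melanogaster, 1.98, 1.61, 2.11 and 2.47 in D. mauritiana and 1.92, 2.03 and 3.80 in the mauritiana hybrid. The widest ranges of group means were those of CG31287, CG6418 and CG5455. CG5455 went from 2.88 in the melanogaster hybrid to -0.45 in D. mauritiana, where its arrays read -0.54, -0.13, -0.75 and -0.40. On all 4 D. mauritiana arrays it was below 0, unlike in melanogaster, simulans and their hybrid. It was below 0 on the D. sechellia arrays too, at -0.45, -3.84 and -3.17, and its mean in the sechellia hybrid was -0.17.

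Groups that the rule did not use were then tested. For each gene measured on 2 or more arrays of every group except D. sechellia, limma was fitted to the 19 arrays of these 6 groups, and a gene was called at a Benjamini-Hochberg adjusted p under 0.05 over the 5113 genes tested. Of the 89 genes 88 were tested. CG8547, with no value in the sechellia hybrid, was not. The tested arrays share the whole-male reference with those that chose the genes. Each array was centred, so 0 is its median gene and not equal amounts in testes and whole males. Higher or lower than the reference below means above or below this 0. A test against 0 asks whether a gene stands apart from that median. It leaves out the spread of the reference, and any bias from dye or from amplifying one RNA alone is part of it.

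In D. mauritiana testes 62 of the 88 genes were higher than in the reference and 0 were lower (1 at an unadjusted p under 0.05). Among all genes tested 28.9% were higher and 26.4% lower, and among the CG-numbered testis genes that fell in the melanogaster hybrid 94.4%. The median ratio of the 88 genes was 0.93, against -0.09 over all genes. With a value of 2.54 ± 0.34 (SE) CG8237 was highest among genes with all arrays above 0. Its arrays read 2.07, 1.81, 2.81 and 3.48 in D. mauritiana, above its melanogaster values of 1.59, 1.77 and 1.21. Its limma adjusted p was 1.35e-06. CG11537 (2.48 ± 0.24, adjusted p = 1.24e-08) was at 2.34, 2.06, 2.46 and 3.06. CG10053 (2.37 ± 0.31) ranged from 0.92 to 3.47 and CG17991 (2.31 ± 0.28) from 1.65 to 3.44. All of these 4 were genes at under 1.5 in simulans and in the melanogaster hybrid. Of the 32 tested genes of that class 20 were higher in D. mauritiana, as were 26 of the 33 genes high in both.

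In the mauritiana hybrid 64 of 88 genes were higher than the reference and 1 was lower, against 30.0% and 17.6% of all genes. Of the CG-numbered testis genes that fell in the melanogaster hybrid 84.3% were higher and 1.68% lower. The median of the 88 genes was 1.17, and 0.11 over all genes. CG31717 led at 4.19 ± 0.28 (SE, limma adjusted p = 2.59e-10), followed by CG11537 at 2.95 ± 0.27 with arrays at 2.60, 2.84 and 3.42. CG10512 was at 1.60, 3.28 and 3.78 (2.89 ± 0.35) and CG13603 at 1.79, 3.46 and 3.25 (2.83 ± 0.30). For both, array 1 was well below the other 2. Array 1 of this group had the lowest median of the 89 genes, 0.70, and arrays 2 and 3 had 1.56 and 1.51. The gene that was lower was CG5664, at -0.34, -0.65 and -1.29 (adjusted p = 0.0159), a call that was lost without array 3. CG5664 was at 1.78 to 2.27 in melanogaster and between -0.70 and 0.24 in simulans.

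In the sechellia hybrid most of the genes were not called. Of 88 genes 13 were higher and 3 lower, against 9.04% and 14.5% of all genes, and the median was 0.20 (0.02 over all genes). Of the CG-numbered testis genes that fell in the melanogaster hybrid 26.6% were higher and 9.80% lower. The split of the 88 genes depends on the centring of the arrays: without it 5 were higher and 13 lower. Without array 1, 2 or 3 the total was 10, 19 or 10 genes, and with close array pairs averaged 8. CG31717 was highest (2.55 ± 0.28, SE, limma adjusted p = 5.44e-07). CG11537 was at 1.63, 2.68 and 1.29 (1.87 ± 0.27) and CG15012 at 1.15, 1.86 and 1.29 (1.43 ± 0.38). CG12377 had values on 2 arrays only, 1.02 and 1.64. The call of CG15012 was lost without array 2. That of CG12377 was lost in 5 of 16 alternatives, among them no centring, close array pairs averaged and the fit without array 3. In the other direction CG31287 was at -3.56, -2.76 and -3.18 (adjusted p = 3.43e-07), the lowest value of any of the 89 genes in a group mean. CG31287 was at 1.11 to 1.97 in melanogaster and at -3.01, -1.23 and -1.32 in D. sechellia. All arrays of D. sechellia and its hybrid were below 0 for this gene. CG6418 was at -1.66, -1.12 and -1.54, and CG6961 at -0.98, -0.40 and -2.34, a call lost without array 3 and with close array pairs averaged.

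The mauritiana hybrid was compared with its father species. Of 88 genes 5 were higher in the hybrid and 6 lower, in all 12.5% of the genes. Over all genes tested 9.37% were called, 5.73% as higher and 3.64% as lower. The share among the kept genes was thus near the background. Of the CG-numbered testis genes that fell in the melanogaster hybrid 5.04% were higher and 13.4% lower. The median difference of the 88 kept genes was 0.31, and 0.15 over all genes. All hybrid arrays lay above all D. mauritiana arrays in 7 genes and below in 6, against 10.7% and 5.83% of all genes.

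Among the genes that were higher in the mauritiana hybrid than in D. mauritiana, CG31717 differed most, by 2.37 ± 0.37 (SE, limma adjusted p = 0.000312), with no overlap. CG10512 differed by 2.30 ± 0.47 (adjusted p = 0.00318). Its D. mauritiana arrays read 0.95, -0.20, -0.18 and 1.80 and its hybrid arrays 1.60, 3.28 and 3.78, so the groups overlapped. CG13603 was at 0.79, 1.04, 0.47 and 1.63 in D. mauritiana and differed by 1.85 ± 0.39. CG5339 (0.23, 0.29, 1.12 and 1.09 against 1.21, 2.32 and 2.52) differed by 1.34 ± 0.39. CG5455 differed by 1.25 ± 0.33, from below 0 on every D. mauritiana array to 0.20, 0.81 and 1.38. The calls of CG5339 and CG5455 are the less firm ones (adjusted p = 0.0327 and 0.0204). The first was lost without mauritiana array 1 or 2 or hybrid array 2 or 3, and the second without mauritiana array 3 or hybrid array 2 or 3. Both were also lost without centring.

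The 6 genes that were lower in the mauritiana hybrid all came from the class that was low in simulans and in the melanogaster hybrid. They were 18.8% of its 32 tested genes, against 3.64% of all genes tested, and 1 of the 32 was higher. Of the CG-numbered testis genes that fell in the melanogaster hybrid 13.4% were lower. High melanogaster and low simulans levels were set in advance for this class. The class was made after the values were seen, and simulans is the mother species of this hybrid. The share of the class is therefore a description. CG6961 was at 1.67, 1.62, 1.21 and 1.59 in D. mauritiana and at -0.71, -0.12 and -0.0007 in the hybrid, a difference of -1.80 ± 0.38 (SE, limma adjusted p = 0.00443). CG6985 was at 1.38, 1.08, 1.59 and 2.27 against -0.37, -0.02 and 0.27, a difference of -1.62 ± 0.36. CG13004 went from 1.80, 1.52, 2.18 and 2.41 to 0.30, 0.47 and 0.92 (-1.41 ± 0.31). For each of these, D. mauritiana stood near the melanogaster level, and simulans and the hybrids of both fathers were lower. The simulans means were -1.06, -0.13 and 0.08. CG10053 had the largest difference, -1.95 ± 0.47 (adjusted p = 0.011), with overlapping arrays of 2.05, 0.92, 3.03 and 3.47 against -0.30, 0.34 and 1.20. CG11807 was at 2.17, 2.02, 1.78 and 2.48 against 0.34, 1.37 and 1.62 (SE of the difference 0.31, adjusted p = 0.0469), with no overlap. CG6418 differed by -1.31 ± 0.39 (adjusted p = 0.0367). The CG6418 call was lost in 12 of 21 alternatives, among them scaled arrays and the fits without mauritiana array 2 or 4 or hybrid array 1.

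**Figure D5:**
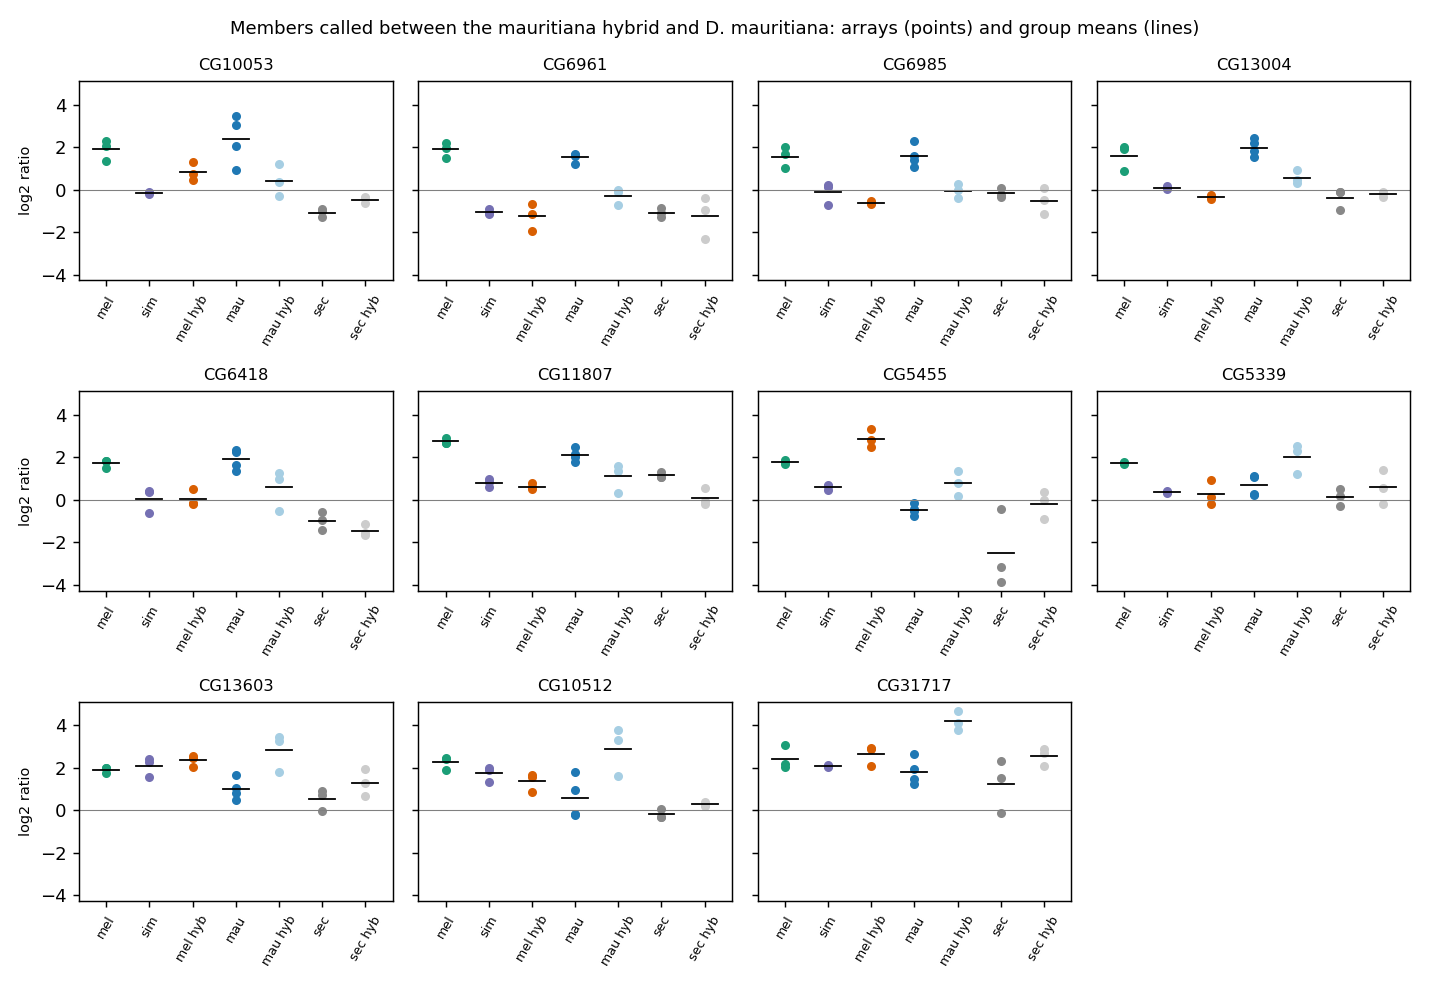
Points are the log2 ratios on single arrays and lines the group means of the 11 genes called between the mauritiana hybrid and D. mauritiana, in 7 groups (mel, melanogaster; sim, simulans; mau, mauritiana; sec, sechellia; hyb, hybrid). The 6 genes that were lower were CG10053, CG6961, CG6985, CG13004, CG6418 and CG11807. Their D. mauritiana means were above 1.5 and their simulans means under 1. Melanogaster means of 1.5 or more were set by the rule, and simulans means under 1.5 by the class of these genes.

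The mauritiana hybrid was then set against the sechellia hybrid, which has the same mother. This comparison shares the mauritiana hybrid arrays with the one above. Of 88 genes 36 were higher in the mauritiana hybrid, which is 40.9%, and 0 lower, also at an unadjusted p under 0.05 in limma. Of all genes tested 20.4% were higher and 5.55% lower, and of the genes that fell in the melanogaster hybrid 64.1% were higher. The median difference was 0.96, and 0.19 over all genes. The arrays did not overlap in 41 genes, all in the same direction. Over all genes 23.5% lay above and 13.6% below without overlap. The count was 23 without mauritiana hybrid array 2 and 20 without array 3. It was 21 with close array pairs averaged.

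Of the genes high in all 3 chosen groups 17 of 33 were among those higher in the mauritiana hybrid, and of the genes low in simulans and the melanogaster hybrid 12 of 32. CG31287 differed most, by 3.28 ± 0.46 (SE, limma adjusted p = 3.85e-05). Its mauritiana hybrid arrays read -0.51, 0.28 and 0.56, near the reference level. CG10512 differed by 2.62 ± 0.50, with 0.38, 0.19 and 0.25 in the sechellia hybrid. CG7059 differed by 2.51 ± 0.50, with 0.90, 2.37 and 2.09 against -1.69, 0.54 and -1.02. CG5194 differed by 2.43 ± 0.48, with 1.20, 3.02 and 3.50 against -0.07, 0.79 and -0.27. In CG31287 the sechellia hybrid was far below the reference, and in CG10512 and CG5194 it was near it. CG17991 (2.26 ± 0.45) and CG13887 (1.94 ± 0.50), 2 of the highest genes in melanogaster, also passed. CG17129 did not, at -0.56 ± 0.42 (adjusted p = 0.343).

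Markers of cell types and germline stages moved with several of these results. For the accessory gland the array medians were -1.75 to -0.60 in D. mauritiana, -0.50 to 0.39 in the mauritiana hybrid and -3.98 to -0.66 in the sechellia hybrid. Between the mauritiana and the sechellia hybrid other lists did not overlap either. The late spermatid medians were 0.69 to 1.13 against -0.37 to 0.08, and those of cup and comet genes 1.20 to 2.41 against -1.17 to -0.40. Both lists were higher in the mauritiana hybrid, as were the 36 genes. Blood cell markers (-0.72 to 0.14 against 0.50 to 1.56) had lower medians there. So did the 3 testis somatic markers (-0.65 to -0.51 against -0.11 to 0.34) and the 5 spermatocyte regulators (-0.56 to 0.01 against 0.21 to 2.30). Within the last list comr went the other way, with group means of 0.52 against 0.27, and topi was nearly level at 1.05 against 1.11. The part of any of these in the differences of the 89 genes was not tested.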

How the data were processed

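Testis RNA of 4 Drosophila species and 3 hybrids was measured on 22 arrays of 2 colours. The deposited series table holds log ratios, already normalized by the authors and read here as log2 by inference. The base and the within-array normalization are not given in the sources used here. The direction, Cy5 testes over Cy3 whole males, follows the labels. Of 27648 rows, 15116 carried 1 symbol in the platform's annotation, which can be old, 102 several, and 12430 were not listed. Arrays held 13019 to 27648 values, and the number of arrays limits the precision. From each array its median over rows with 1 symbol was subtracted, and rows of a gene were averaged (2 rows for 87 of the genes described, 4 for 2). Groups came from the labels.

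Group means were fitted to 19 arrays, with 1 spread per gene, by the lmFit and eBayes functions of limma 3.58.1 (R 4.3.3). They covered D. mauritiana and 2 hybrids against 0, and the mauritiana hybrid against its father species and against the sechellia hybrid. On simulated data with each group's own noise the fit missed most 2-fold differences between 2 groups. There 200 of 5113 genes were changed. In every comparison the fit also called more unchanged genes than the threshold implies, on average 22.7 to 108.3, most in the sechellia hybrid. Its adjusted p-values were thus too small in that setting. How far this holds with more changed genes was not tested. The alternatives are given in the closing section.

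The genes, lists and tests were chosen with earlier results of these data known. Genes named singly were the 6 highest in melanogaster, the 6 with the highest minimum over 6 group means, the 3 on each side of each threshold, up to 4 called genes per direction and comparison without overlap, and the 3 with the widest range. The genes of each class, the 11 called between the mauritiana hybrid and D. mauritiana, CG6891 and CG8547 were named after their values were seen. Chromosomes, sequences and newer gene names were not used here.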

Additional observations from a re-analysis of the deposited data

Results flagged for a closer look

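In 4 genes the mauritiana hybrid and the sechellia hybrid differed by the test of the difference itself and lay furthest apart without overlap, as log2 differences of mauritiana hybrid minus sechellia hybrid. CG31287 differed by 3.28, CG10512 by 2.62, CG7059 by 2.51 and CG5194 by 2.43 (limma adjusted p = 3.85e-05, 0.000599, 0.000931 and 0.000831). In each gene all 3 mauritiana hybrid arrays were above all 3 sechellia hybrid arrays.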

How the results depend on the processing

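Limits: 3 or 4 arrays per group, 1 dye order, possible repeat runs, and probes of 1 species bound all comparisons. The rule gave 89 genes, 59 without centring, 206 and 29 with a melanogaster minimum of 1 and 2, 140 and 48 with a floor of -1 and 0, and 79 to 110 without single arrays. Of the genes tested, 62 were called in D. mauritiana (17 with a 2-fold minimum, 46 to 66 without single arrays) and 65 in the mauritiana hybrid (18 with that minimum, 51 to 72 without single arrays). Without centring, the 62 higher and 0 lower in D. mauritiana became 51 and 1. In the mauritiana hybrid 64 higher and 1 lower became 49 and 2, and over all genes 1534 and 900 became 986 and 1647. In the sechellia hybrid 16 were called, 5 with the spread of the arrays compared, 2 with the 2-fold minimum, 8 with close array pairs averaged and 10 to 19 without single arrays. Without centring, which moved the median of all genes there from 0.02 to -0.43, its split of 13 higher and 3 lower became 5 and 13. For the mauritiana hybrid minus D. mauritiana 11 were called, 5 with the spread of the arrays compared, 7 with the sechellia arrays in the fit, 0 with the 2-fold minimum and 8 to 14 without single arrays. With that minimum limma called 19 of 5113 genes, and 3 higher and 3 lower of the 88 at an unadjusted p under 0.05. The split of 5 higher and 6 lower became 3 and 6 without centring, 5 and 4 with scaled arrays, 8 and 4 after quantile normalization, 12 and 4 with array weights. For the mauritiana minus the sechellia hybrid 36 were called, 20 with the spread of the arrays compared, 3 with the 2-fold minimum, 21 with close array pairs averaged and 20 to 48 without single arrays. Replicate numbers did not pair the arrays: over 45 same-numbered pairs the deviations correlated at -0.33 to 0.29 (median 0.02). With a replicate block the 5 counts were 63, 72, 15, 9 and 39. Of 520 recomputed values of named genes 468 kept their call, 52 lost it and 0 changed direction.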
